A study of Mus musculus with 24 samples.

Results

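The receptors for the colony-stimulating factors and for FLT3 ligand were followed at the transcript level in blood monocytes of wt and Notch2-deficient mice. The group holds 6 genes, *Csf1r*, *Csf2ra*, *Csf2rb*, *Csf2rb2*, *Csf3r* and *Flt3*, taken by gene symbol, of 53715 genes listed. All 6 were among the 11230 genes tested, which had a normalised read count of at least 50 in at least 1 of 24 RNA-sequencing libraries. *Csf1r*, *Csf2ra*, *Csf2rb*, *Csf2rb2* and *Csf3r* reached 50 in all 24 libraries and *Flt3* in 23. A normalised read count is the number of reads on a gene divided by the size factor of its library.

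Colony-stimulating factors are the growth factors of the myeloid lineage. CSF1R and FLT3 are receptor tyrosine kinases of the same class as KIT and the PDGF receptors, whereas the receptors for GM-CSF, IL-3, IL-5 and G-CSF have no kinase of their own and signal through JAK kinases and STAT proteins. CSF1R is carried by all monocytes and its ligands CSF1 and IL-34 maintain monocytes and macrophages, in particular the Ly6Clo subset that patrols the vessel wall, while FLT3 marks progenitors and dendritic cells and is low in mature monocytes.

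Cells came from peripheral blood (PB) of C57BL/6 mice aged 8-10 weeks, either wt or N2ΔMy, in which Cre recombinase under the *Lyz2* promoter removes floxed *Notch2* in myeloid cells. Mice were treated on depilated skin for 4-5 days with Sham crème (Vaseline) or with 50 mg per day of Aldara, a cream with 5% imiquimod (IMQ), an agonist of the innate RNA sensor TLR7, and cells were sorted on day 5. The 6 groups of 4 libraries were wt Ly6Chi Sham, N2ΔMy Ly6Chi Sham, wt Ly6Chi IMQ, N2ΔMy Ly6Chi IMQ, wt Ly6Clo IMQ and N2ΔMy Ly6Clo IMQ; Ly6Clo cells of Sham mice were not analysed here. Both gates required GFP, so mice of both genotypes carried the *Cx3cr1*-GFP reporter allele, and one source used here calls the Sham mice untreated. Both gates also required CD115, which is the CSF1R protein, so every cell was chosen for the product of one of the genes described and cells without it were not seen.

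*Notch2* was checked first. Its normalised read count in N2ΔMy libraries was 61.1% of wt in Ly6Chi cells after Sham, 54.8% after IMQ and 60.5% in Ly6Clo cells, and the 12 N2ΔMy libraries (7240 to 11518) lay below the 12 wt libraries (12656 to 20005). Depth inferred from the table lay between 9522594 and 19759748 reads per library. Libraries numbered 1 and 2 carry codes of a first series (14579035 to 19759748 reads) and those numbered 3 and 4 codes of a second series (9522594 to 15593893 reads). The summed Ly6Chi monocyte markers (5 of 5 genes in the table, none at 0 in a whole group) amounted to 55152 to 81724 in Ly6Chi libraries, 524 to 1892 in wt Ly6Clo libraries and 7117 to 10009 in N2ΔMy Ly6Clo libraries. The summed Ly6Clo markers (6 of 6 genes, none at 0) were 11236 to 31280, 99611 to 120695 and 52427 to 71546 in the same order. Summed macrophage markers (7 of 7 genes, *Timd4* at 0 in the N2ΔMy group and *Vcam1* in the wt group) were 3963 to 6133 in wt and 7585 to 11752 in N2ΔMy Ly6Clo libraries. N2ΔMy Ly6Clo libraries thus stood between Ly6Chi and wt Ly6Clo libraries on the subset markers, and in bulk RNA fewer cells of a type cannot be told apart from less RNA per cell.

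The genes *Csf2rb* and *Csf2rb2* lie beside each other on chromosome 15 (GRCm38) and are copies of one another, so their reads need separating before their levels can be compared. CSF2RB is the beta chain shared by the GM-CSF, IL-3 and IL-5 receptors, and CSF2RB2 is a mouse-specific chain that serves IL-3. The coding sequences of the longest GENCODE transcripts, 2688 bases for *Csf2rb* and 2634 for *Csf2rb2*, were identical at 95.2% of 2628 aligned bases, with a longest identical run of 242 bases. The stretch of 75 aligned coding bases, the read length of these libraries, with the most differences is shown for both because it is where a read tells the genes apart best. Capitals mark the 14 bases that differ between the copies.
Csf2rb (chr15:78338905-78338979, plus strand): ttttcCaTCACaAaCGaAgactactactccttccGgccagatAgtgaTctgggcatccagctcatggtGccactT
Csf2rb2 (chr15:78294352-78294426, minus strand): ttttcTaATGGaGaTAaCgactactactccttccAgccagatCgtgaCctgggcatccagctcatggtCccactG
Over whole transcripts, 7.15% of the distinct 75-base windows of *Csf2rb* and 10.6% of those of *Csf2rb2* also occurred in the other gene, so most windows were distinct and misassignment was possible in the remainder. How reads with several matches were counted is not given in the sources used here, and the levels of this pair are uncertain to that extent.

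For the other members, *Csf2ra* and *Flt3* shared no 75-base window with any other annotated gene and *Csf3r* shared 3.13%. *Csf1r* shared 13.9% of its windows and 871 exonic bases (17.8% of its exonic length) with *Hmgxb3*, which is read from the opposite strand and had a mean normalised read count of 461. The kit keeps the strand, but whether counting used it is not stated; the mean of *Csf1r* was 20928.

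Promoters are shown for *Csf2rb2*, *Csf3r* and *Flt3*, the members with the widest range of group means, and for *Csf2ra*, which had the narrowest. The sequences are those of RefSeq (GRCm38.p6), which matched 4 of the 6 members; *Csf1r* and *Csf2rb* had no entry. Each runs 5′ to 3′ on the strand of the gene and ends at the base before the first exon of the deposited annotation. Capitals mark letters found in motifs of factors of myeloid receptor genes and of the Notch pathway, on either strand: GAGGAA (PU.1), TTNNGNAA (C/EBP), TGTGGT (RUNX) and TGGGAA (RBPJ, the DNA-binding partner of Notch).
Csf2ra (chr19:61228419-61228668, minus strand): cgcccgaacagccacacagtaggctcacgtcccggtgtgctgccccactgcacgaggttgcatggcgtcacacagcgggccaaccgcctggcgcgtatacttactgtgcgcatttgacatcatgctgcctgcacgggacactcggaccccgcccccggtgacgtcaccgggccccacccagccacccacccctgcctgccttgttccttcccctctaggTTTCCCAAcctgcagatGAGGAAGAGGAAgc
Csf2rb2 (chr15:78305722-78305971, minus strand): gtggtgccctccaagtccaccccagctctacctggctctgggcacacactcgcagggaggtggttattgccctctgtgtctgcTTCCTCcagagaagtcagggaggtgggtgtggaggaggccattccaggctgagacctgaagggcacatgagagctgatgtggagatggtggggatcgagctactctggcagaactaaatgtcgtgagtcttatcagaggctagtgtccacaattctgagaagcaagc
Csf3r (chr4:126024409-126024549, plus strand): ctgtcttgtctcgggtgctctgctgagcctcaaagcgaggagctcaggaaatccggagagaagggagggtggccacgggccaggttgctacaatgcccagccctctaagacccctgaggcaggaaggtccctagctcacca
Flt3 (chr5:147400490-147400739, minus strand): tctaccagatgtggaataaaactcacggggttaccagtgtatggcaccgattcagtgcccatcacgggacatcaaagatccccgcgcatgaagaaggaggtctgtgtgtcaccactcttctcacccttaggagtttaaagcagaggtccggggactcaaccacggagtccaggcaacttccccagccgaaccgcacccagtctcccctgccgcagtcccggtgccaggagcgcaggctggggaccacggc
The *Csf2ra* window held 2 adjacent PU.1 matches, starting at -14 and -8 from the first exonic base, and 1 C/EBP match that overlaps 1 RBPJ match. *Csf2rb2* held 1 PU.1 match, and *Csf3r* (141 bases) and *Flt3* held none of the 4 motifs. Among 27025 promoters of 250 bases in the same table, 23.1% held GAGGAA, 36.9% TTNNGNAA, 14.2% TGTGGT and 21.5% TGGGAA, so such matches are common, and a window without them says nothing of the factors.

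The files place *Csf2ra* (ENSMUSG00000059326.6) on chromosome 19 from 61224402 to 61228418, *Csf2rb* (ENSMUSG00000071713.5) on chromosome 15 from 78325798 to 78353847, *Csf2rb2* (ENSMUSG00000071714.6) on chromosome 15 from 78282507 to 78305721, *Csf3r* (ENSMUSG00000028859.14) on chromosome 4 from 126024550 to 126044440 and *Flt3* (ENSMUSG00000042817.15) on chromosome 5 from 147330741 to 147400489. *Csf1r* is listed as ENSMUSG00000024621.15. Per kilobase of exon, the scale on which genes can be compared, *Csf1r* was the most abundant member with a mean of 4284 normalised reads per kb over 24 libraries, the 80th highest of the 11230 genes tested. *Csf2ra* followed with 2949, *Csf3r* with 1148 and *Csf2rb* with 646. *Csf2rb2* reached 163 and *Flt3* 64.6 normalised reads per kb. Thus 4 members were abundant transcripts in these cells, and *Flt3* was near the middle of the genes tested, at rank 6308. In an F-test over the 6 groups (limma), 5 of 6 members had an adjusted p up to 0.01, against 43.0% of all genes tested, and *Csf2ra* did not (adjusted p = 0.852). With the replicate number as a block *Csf2ra* passed too (adjusted p = 0.00127), so that 6 of 6 did.

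**Figure D1:**
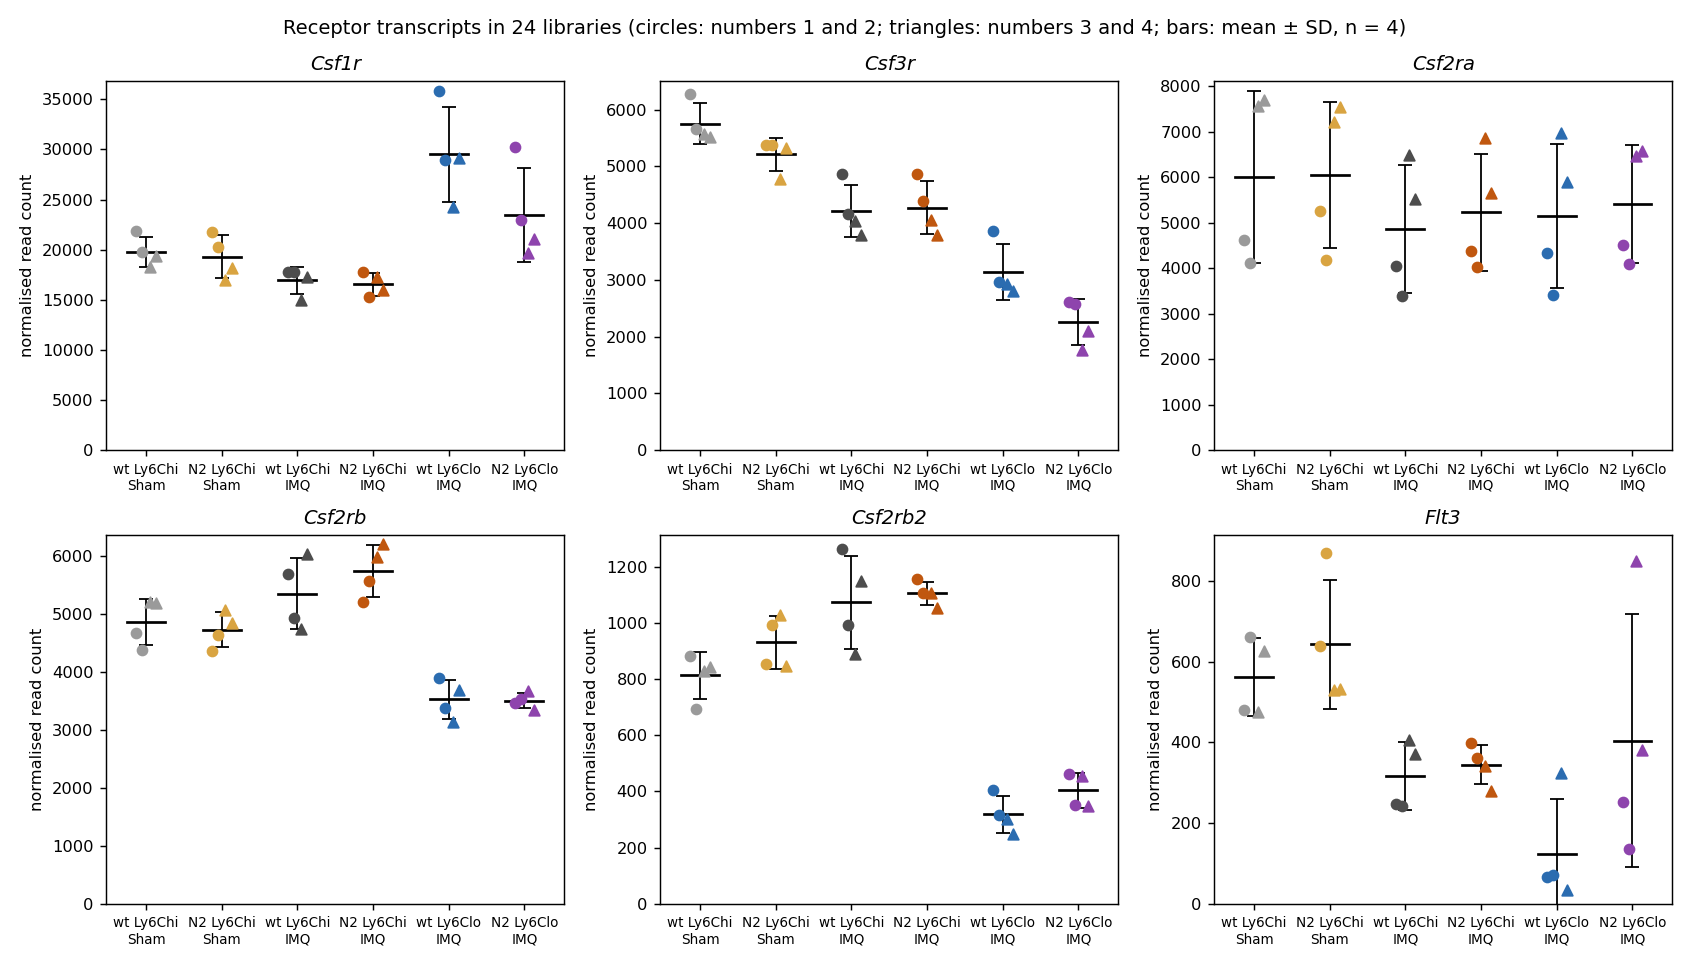
Normalised read count of the 6 receptor genes (y axis, from 0) in the 6 groups (x axis, N2 = N2ΔMy); points are libraries, circles numbers 1 and 2 and triangles numbers 3 and 4, and bars give the mean ± SD (n = 4). *Csf1r* is highest in the Ly6Clo groups, *Csf2rb* and *Csf2rb2* are lowest there, *Csf3r* steps down from Sham Ly6Chi to N2ΔMy Ly6Clo, and *Flt3* spreads from 35 to 325 in wt Ly6Clo and from 135 to 850 in N2ΔMy Ly6Clo libraries.

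The first question was what IMQ did to the receptors of Ly6Chi monocytes. In wt mice 1 of 6 members was called, that is, had an adjusted p up to 0.05 and a log2 fold change of 0.6 or more in size, where 9.49% of all genes tested were called (5.07% lower). The count was likewise 1 of 6 in N2ΔMy mice against 8.7% (4.55% lower). Both calls were *Flt3*, which fell, and 1 call among 6 genes is near the share over all genes. The libraries of both treatments did not overlap for *Csf1r*, *Csf2rb2*, *Csf3r* and *Flt3* in wt mice (21.5% of all genes did not overlap) and for *Csf2rb*, *Csf2rb2* and *Flt3* in N2ΔMy mice (19.5%). The median log2 fold change of the members was -0.26 in wt and -0.21 in N2ΔMy mice, beside 0.01 and 0.01 over all genes tested.

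*Flt3* read 480, 661, 476 and 626 in wt Ly6Chi Sham libraries and 248, 243, 405 and 370 in wt Ly6Chi IMQ libraries. All IMQ libraries were below all Sham libraries. The level fell by 0.84 on the log2 scale (SE 0.19, adjusted p = 0.0139), from a mean of 561 ± 96.6 to 316.5 ± 83.2 (SD, n = 4). In N2ΔMy mice the Sham libraries read 638, 870, 530 and 533 and the IMQ libraries 397, 360, 342 and 280, again without overlap. There *Flt3* fell by 0.88 (SE 0.17, adjusted p = 0.00816), and the genotype by treatment interaction was -0.03 (95% interval -0.62 to 0.55, adjusted p = 1). Within the first library series of wt mice the log2 fold change was -1.19 and within the second -0.49, which was below the fold limit and not called there (adjusted p = 0.162). Without a filter on low values the adjusted p was 0.104 in wt and 0.0665 in N2ΔMy mice. With all 24 libraries in 1 fit the call of *Flt3* was likewise lost in both genotypes.

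The dendritic cell markers moved with *Flt3* in these cells. Their sum (8 of 8 genes, with *Xcr1* at 0 in both Sham groups) was 1044 to 1772 in the 8 Sham libraries and 285 to 533 in the 8 IMQ libraries. In each genotype 4 of 6 tested markers fell, beside 5.07% (wt) and 4.55% (N2ΔMy) of all genes. *Klrd1*, the 1 NK cell marker tested, had a log2 fold change of -1.78 in wt (adjusted p = 0.131) and fell by 2.12 in N2ΔMy mice (adjusted p = 0.0347), at NK cell marker sums of 7 to 34 in Sham and 0 to 9 in IMQ libraries. *Cd209a*, a lectin of dendritic cells, went from 292 to 677 over the Sham libraries to 0 to 44 over the IMQ libraries. The part of these transcripts in the *Flt3* result was not tested.

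*Csf3r*, the G-CSF receptor of neutrophils and monocytes, read 6278, 5655, 5563 and 5524 in wt Ly6Chi Sham and 4860, 4161, 4037 and 3787 in wt Ly6Chi IMQ libraries. All IMQ libraries lay below all Sham libraries, by a log2 fold change of -0.45 (SE 0.09, adjusted p = 0.00713), which passed the p limit but not the fold limit. In N2ΔMy mice the change was -0.29 (SE 0.09, adjusted p = 0.0645, and 0.0264 blocking on the replicate number), and the Sham (4773 to 5372) and IMQ libraries (3783 to 4862) overlapped. Neutrophil markers went the other way, with sums of 1820 to 2829 in Sham and 4143 to 9774 in IMQ libraries (11 of 11 genes; *Camp* and *Ngp* at 0 in both Sham groups, *Ly6g* in both IMQ groups). Of 6 neutrophil markers tested, 3 rose in wt and 4 in N2ΔMy Ly6Chi cells, led by *S100a8* and *S100a9*, where 9.49% and 8.7% of all genes were called in either direction. The sort took lineage-negative cells, which left out cells stained for Ly6G, a surface marker of neutrophils.

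The remaining 4 receptors were not called. *Csf1r* had a log2 fold change of -0.23 in wt (adjusted p = 0.143) and -0.22 in N2ΔMy Ly6Chi cells (adjusted p = 0.21), and blocking on the replicate number gave 0.0349 and 0.14. *Csf2rb2* was at 813 ± 82.3 in wt Sham and 1074 ± 165 in wt IMQ libraries (log2 fold change 0.39, adjusted p = 0.0564), and *Csf2rb* at 4723 ± 301 and 5736 ± 448 in N2ΔMy Sham and IMQ libraries (log2 fold change 0.28, adjusted p = 0.0534). *Csf2ra* had a log2 fold change of -0.29 in wt (adjusted p = 0.482) and -0.20 in N2ΔMy mice (adjusted p = 0.605) and was lower after IMQ in 4 of 4 pairs of the same number in each genotype. Blocking gave it adjusted p = 0.00848 and 0.112. The block also brought *Csf2rb2* in wt mice to adjusted p = 0.00762 and *Csf2rb* in N2ΔMy mice to 0.0158, each higher in 4 of 4 pairs. Blocked or not, these changes stayed under the fold limit. Same-number libraries of both treatments come from different mice. Within a library series they shared almost no deviation from the group means (mean r across genes 0.011 in wt and -0.011 in N2ΔMy mice).

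**Figure D2:**
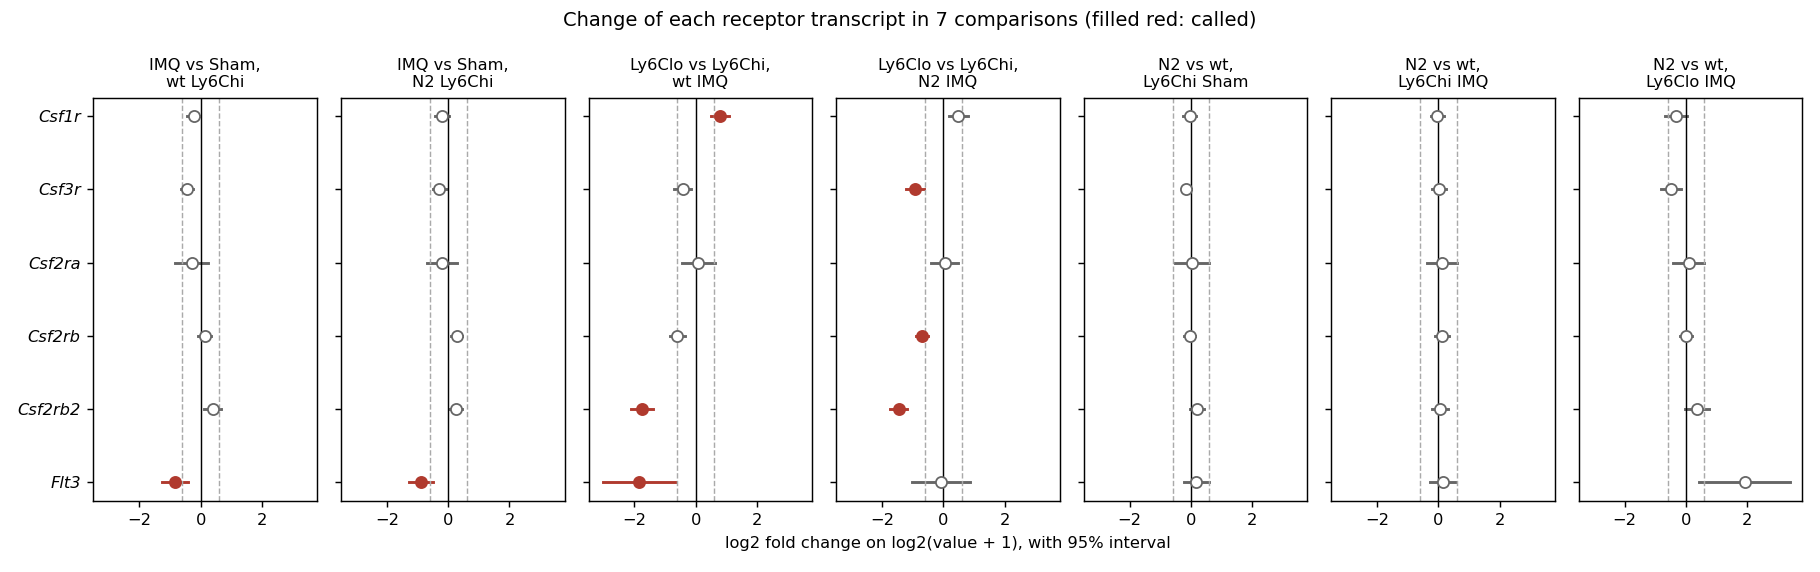
Log2 fold change of each receptor transcript on the log2(value + 1) scale (x axis) with its 95% interval in 7 comparisons (panels, N2 = N2ΔMy); filled red points are called and dashed lines mark the fold limit of ±0.6. *Csf2rb2* is lower in Ly6Clo cells of both genotypes, *Flt3* is lower after IMQ in both, and the interval of *Flt3* between genotypes of Ly6Clo cells is the widest.

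The second question was how Ly6Clo differed from Ly6Chi monocytes of IMQ-treated mice, within each genotype. In wt mice 3 of 6 members were called, against 24.6% of all genes tested, with *Csf1r* higher (11.9% of all genes) and *Csf2rb2* and *Flt3* lower (12.7%). In N2ΔMy mice 3 of 6 were called, against 17.4%, and these were *Csf2rb*, *Csf2rb2* and *Csf3r*, all lower (8.38%). The libraries of both subsets did not overlap for 3 of 6 members in wt (35.4% of all genes) and for 4 of 6 in N2ΔMy mice (27.8%). The median log2 fold change of the members was -0.51 in wt and -0.39 in N2ΔMy mice, beside -0.01 over all genes in both.

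*Csf1r* read 17772, 17721, 14998 and 17242 in wt Ly6Chi IMQ and 35788, 28911, 24245 and 29133 in wt Ly6Clo IMQ libraries. Every Ly6Clo library was above every Ly6Chi library, and the level rose by 0.79 on the log2 scale (SE 0.13, adjusted p = 0.000713), or 1.73-fold. Libraries of N2ΔMy Ly6Chi cells read 17756, 15242, 17249 and 15989 and those of Ly6Clo cells 30196, 22914, 19639 and 21076, without overlap but with a log2 fold change of 0.48 (SE 0.14, adjusted p = 0.0261) below the fold limit. The difference between both changes was -0.31 (95% interval -0.71 to 0.09, adjusted p = 0.841).

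*Csf2rb2* was lower in Ly6Clo cells of both genotypes without overlap. It read 1263, 992, 890 and 1149 in wt Ly6Chi IMQ and 405, 317, 303 and 247 in wt Ly6Clo IMQ libraries, so that the highest Ly6Clo library was below the lowest Ly6Chi library. The level fell by 1.76 on the log2 scale (SE 0.16, adjusted p = 1.47e-05), a level 3.39-fold lower. In N2ΔMy mice it read 1155, 1105, 1107 and 1054 in Ly6Chi and 461, 351, 455 and 349 in Ly6Clo libraries and fell by 1.46 (SE 0.12, adjusted p = 1.01e-05). The interaction was 0.30 (95% interval -0.14 to 0.74, adjusted p = 0.898).

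*Csf2rb*, the chain shared by 3 cytokine receptors, read 5678, 4931, 4737 and 6031 in wt Ly6Chi IMQ and 3899, 3376, 3131 and 3688 in wt Ly6Clo IMQ libraries. The groups did not overlap, yet the log2 fold change of -0.599 (SE 0.11, adjusted p = 0.00134) stood just under the fold limit in size. It was called at -0.62 to -0.65 after leaving out wt Ly6Chi number 2 or 3 or wt Ly6Clo number 1 or 4. N2ΔMy Ly6Chi libraries read 5195, 5564, 5975 and 6209 and the Ly6Clo libraries 3462, 3526, 3670 and 3347, and the level fell by 0.71 (SE 0.09, adjusted p = 0.000197).

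*Csf2rb2* thus differed more between subsets than its neighbour *Csf2rb*. Within a library, *Csf2rb2* amounted to 20.1% ± 1.57 of *Csf2rb* in wt Ly6Chi IMQ and 9.04% ± 1.62 in wt Ly6Clo IMQ cells (SD, n = 4). These are ratios of normalised read counts not divided by exonic length, so they compare groups and not the abundance of the genes. The libraries did not overlap (18.8% to 22.2% and 6.7% to 10.4%), and the exact permutation test gave p = 0.0286 (two-sided, n = 4 and 4), the smallest p it can give. In N2ΔMy mice the shares were 19.4% ± 2.23 and 11.5% ± 1.6, with the same exact p of 0.0286 (n = 4 and 4). Between genotypes of Ly6Clo cells the shares of 9.04% and 11.5% overlapped and the exact permutation p was 0.0571 (n = 4 and 4). Adjusted over the 14 comparisons made of 2 ratios, these p values were 0.0801, 0.0801 and 0.1.

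*Csf3r* read 4860, 4161, 4037 and 3787 in wt Ly6Chi IMQ and 3865, 2961, 2930 and 2801 in wt Ly6Clo IMQ libraries. The groups overlapped by 1 library, and the log2 fold change of -0.43 (SE 0.12, adjusted p = 0.0171) missed the fold limit. N2ΔMy Ly6Chi libraries read 4862, 4387, 4056 and 3783 and the Ly6Clo libraries 2613, 2576, 1766 and 2098, all below. There *Csf3r* fell by 0.93 (SE 0.14, adjusted p = 0.000583), a level 1.9-fold lower. The interaction was -0.50 (95% interval -0.90 to -0.10, adjusted p = 0.393, and 0.0184 in the blocked fit), under the fold limit. Neutrophil marker sums were 100 to 433 in wt and 508 to 731 in N2ΔMy Ly6Clo libraries, far below those of Ly6Chi cells, with *Ly6g* at 0 in all 8. Of 6 neutrophil markers tested, 4 were lower in Ly6Clo cells of each genotype and 1 was higher in N2ΔMy mice. All genes were called at 24.6% (wt) and 17.4% (N2ΔMy). Between genotypes of Ly6Clo cells 3 of the 6 were higher in N2ΔMy mice and none lower, beside 4.78% of all genes.

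The ratio of *Csf1r* to *Csf3r* within each library, again of normalised read counts not divided by exonic length, was compared between the subsets as well. *Csf1r* amounted to 405% ± 43.3 of *Csf3r* in wt Ly6Chi IMQ and 942% ± 89.8 in wt Ly6Clo IMQ libraries, and to 390% ± 39.7 and 1040% ± 119 in N2ΔMy mice. Neither pair of groups overlapped (exact permutation p = 0.0286, n = 4 and 4, the smallest possible, adjusted p = 0.0801, for both).

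**Figure D3:**
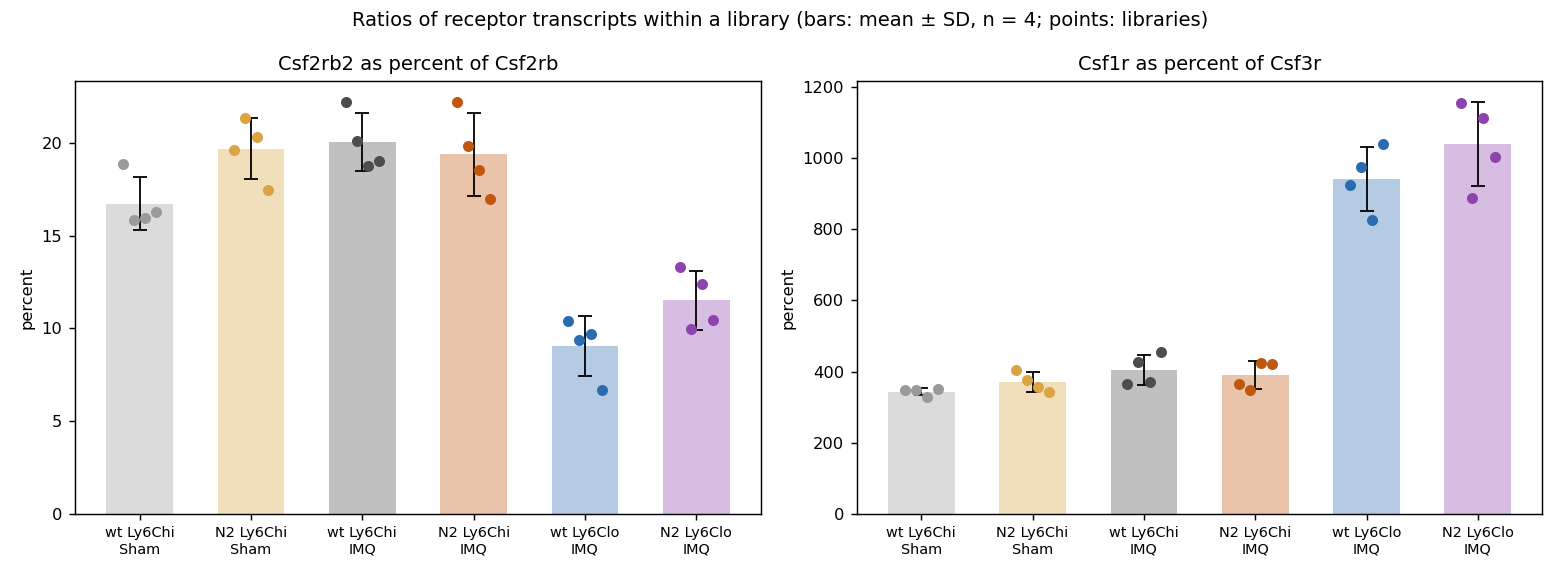
*Csf2rb2* as percent of *Csf2rb* (left) and *Csf1r* as percent of *Csf3r* (right) within each library; bars give the mean from 0 with the SD (n = 4), points the libraries, and groups are on the x axis (N2 = N2ΔMy). Both are ratios of normalised read counts not divided by exonic length. The first ratio drops from 20.1% to 9.04% and the second climbs from 405% to 942% between wt Ly6Chi and Ly6Clo cells after IMQ.

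*Csf2ra*, the ligand-specific chain of the GM-CSF receptor, was not called in any of the 7 pairwise comparisons. Its subset log2 fold change was 0.08 (95% interval -0.46 to 0.61) in wt and 0.05 (-0.39 to 0.49) in N2ΔMy mice. The wide intervals go with the library series. The second-series libraries lay above the first-series libraries in 6 of 6 groups, for example 4631 and 4123 against 7563 and 7694 in wt Ly6Chi Sham, by a mean log2 difference of 0.68 (0.57 to 0.80 by group). Its group means ran from 4863 in wt Ly6Chi IMQ to 6052 in N2ΔMy Ly6Chi Sham cells, a ratio of 1.24. *Csf3r* showed the opposite order, with second-series libraries below the first in 6 of 6 groups, by a mean of -0.22.

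The third question was whether loss of Notch2 altered the receptors. No member was called between genotypes in Ly6Clo cells, where 4.78% of all genes tested were, in Ly6Chi cells after IMQ (0.0267%) or in Ly6Chi cells after Sham (0.0178%). At an unadjusted p under 0.05, 2192, 679 and 585 of 11230 genes passed in the same order (limma). The Ly6Chi comparisons use the same libraries as the treatment comparisons above. No member was called in the genotype by subset interaction, where 1.03% of all genes were, or in the genotype by treatment interaction (0%), where 177 genes passed at an unadjusted p under 0.05.

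*Flt3* differed most between the genotypes of Ly6Clo cells, and varied most within them. It read 65, 71, 325 and 35 in wt Ly6Clo and 251, 135, 850 and 381 in N2ΔMy Ly6Clo libraries numbered 1 to 4. The N2ΔMy library was the higher one in 4 of 4 pairs of the same number, while the groups overlapped through wt number 3. The log2 fold change was 1.91 (SE 0.67, 95% interval 0.42 to 3.40), with an adjusted p of 0.141 in limma. The exact permutation test gave p = 0.0857 (two-sided, n = 4 and 4).

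Blocking on the replicate number, the *Flt3* difference was called (adjusted p = 0.00242), and with the library series as a covariate likewise (adjusted p = 0.0361). The block raised the calls over all genes from 537 to 939. Without wt Ly6Clo number 3 the log2 fold change was 2.55 (adjusted p = 0.0222), and without both Ly6Clo libraries numbered 3 it was 2.09 (adjusted p = 0.0257). Within the first library series it was 1.43 and within the second 2.40, in the same direction. The genotype by subset interaction of *Flt3* was 1.76 (SE 0.78, adjusted p = 0.538) and was not called with the block (adjusted p = 0.133) or the series as a covariate (adjusted p = 0.269). Without both Ly6Clo libraries numbered 3, left out after seeing the data, it was 1.94 (adjusted p = 0.0497).

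Dendritic cell markers, taken as a sum, were again high where *Flt3* was among the Ly6Clo libraries. Their sums were 89, 134, 497 and 70 in wt Ly6Clo and 328, 257, 1685 and 696 in N2ΔMy Ly6Clo libraries, highest at number 3 in both genotypes as was *Flt3*. *Zbtb46*, a transcription factor of conventional dendritic cells, read 33, 55, 114 and 37 and then 28, 53, 460 and 165. *Clec10a*, a lectin of dendritic cells and some monocytes, was the 1 of 6 markers tested that was called between genotypes, beside 4.78% of all genes. It rose from 6 to 35 in wt to 104 to 240 in N2ΔMy Ly6Clo libraries. The blocked fit, which called *Flt3* and 8.36% of all genes, called 3 of the 6, with *Kmo* (2.44, adjusted p = 0.00732) and *Clec9a* (1.34, adjusted p = 0.0494) beside *Clec10a*. Summed NK cell markers (3 of 3 genes, *Ncr1* and *Klrb1c* at 0 in both Ly6Clo groups, so that *Klrd1* alone gave the sum) went the same way, with 4, 0, 25 and 0 in wt and 15, 10, 126 and 68 in N2ΔMy Ly6Clo libraries. *Klrd1* had a log2 fold change of 3.38 (adjusted p = 0.123, and 0.00729 in the blocked fit). It passed the filter on low values through N2ΔMy Ly6Clo libraries alone, so these values are no independent support for a difference. Summed progenitor markers (7 of 7 genes) were 5 to 12 in wt Ly6Clo libraries other than number 3 (58) and 17 to 69 in N2ΔMy Ly6Clo libraries other than number 3 (109). Of the progenitor markers, *Elane* was at 0 in both Ly6Clo groups. Of the dendritic cell markers, *Xcr1* was at 0 to 13, and none was at 0 in a whole Ly6Clo group. The gate excluded MHC-II, which dendritic cells carry, the lineage gate left out cells stained for NK1.1, which NK cells carry, and the part of these transcripts in the *Flt3* result was not tested.

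**Figure D4:**
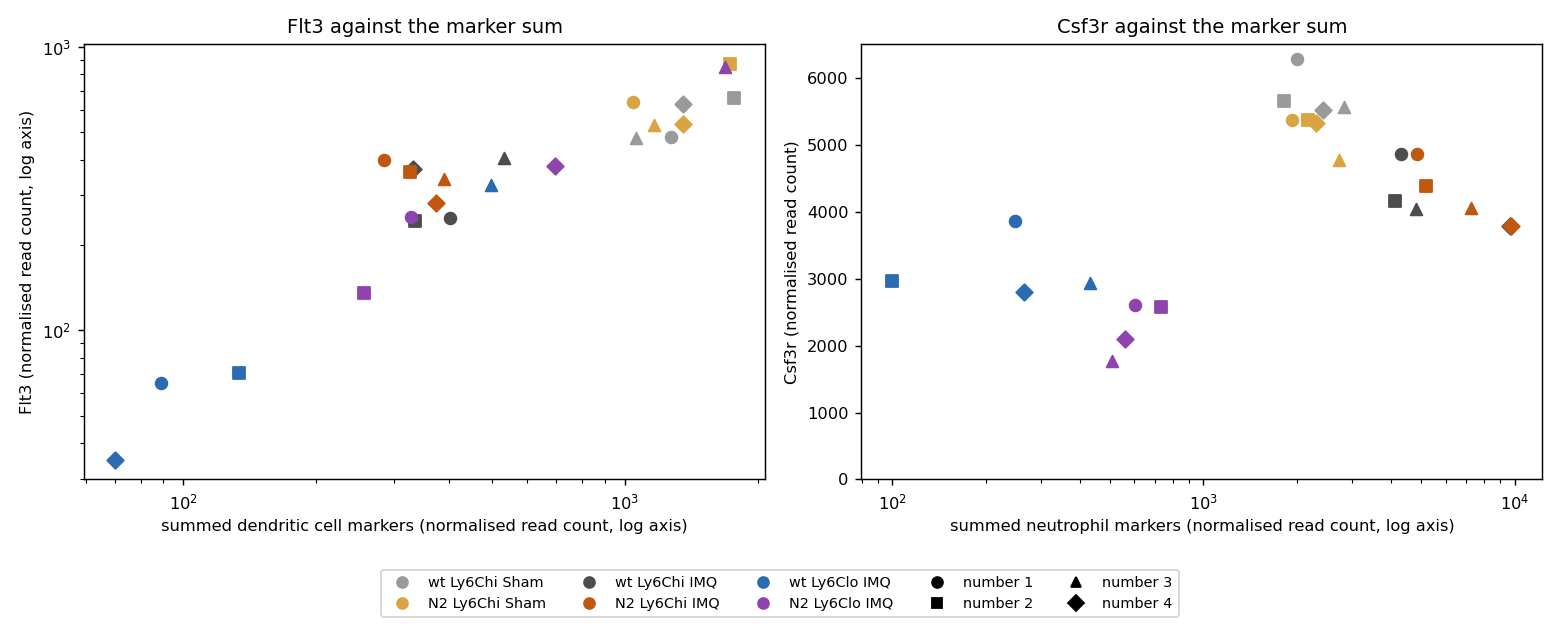
Left, *Flt3* against the summed dendritic cell markers, both on log axes; right, *Csf3r* on a linear axis against the summed neutrophil markers on a log axis; each point is a library, colours are groups (N2 = N2ΔMy) and symbols are library numbers, and all values are normalised read counts. *Flt3* and the dendritic cell sum are low together in wt Ly6Clo numbers 1, 2 and 4 and high together in N2ΔMy Ly6Clo number 3, whereas *Csf3r* of Ly6Chi libraries is lower after IMQ at higher neutrophil sums.

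*Flt3* in Ly6Clo cells also bears on the subset comparison. In wt mice it fell from 248, 243, 405 and 370 in Ly6Chi to 65, 71, 325 and 35 in Ly6Clo libraries, by 1.84 on the log2 scale (SE 0.54, adjusted p = 0.0216). Number 3 alone overlapped the Ly6Chi libraries. The Ly6Clo library was lower in 4 of 4 pairs of the same number, and the blocked fit gave an adjusted p of 0.000431. Without the block, leaving out wt Ly6Chi number 3 or 4 or wt Ly6Clo number 1, 2 or 4 gave log2 fold changes of -1.42 to -1.75 and adjusted p values of 0.0521 to 0.0564. Leaving out wt Ly6Clo number 3 gave -2.48 (adjusted p = 0.000155), and the call was also kept without wt Ly6Chi number 1 or 2. In N2ΔMy mice the subset log2 fold change was -0.08 (95% interval -1.03 to 0.87, adjusted p = 0.92), being -1.03 in the first series and 0.88 in the second. Dendritic cell markers taken singly did not all move with *Flt3* between subsets. Of 6 tested, 1 was higher and 1 lower in wt Ly6Clo cells (median log2 fold change 0.415, with 24.6% of all genes called). In N2ΔMy mice 3 were higher and none lower (median 2.77, with 17.4% called). The blocked fit called 4 in each genotype, and 28.5% and 20.5% of all genes.

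*Csf3r* was lower in N2ΔMy than in wt Ly6Clo cells in every library, at 2263 ± 406 against 3139 ± 489 (SD, n = 4). The log2 fold change of -0.48 (95% interval -0.80 to -0.15) had an adjusted p of 0.091, and of 0.00336 in the blocked fit, under the fold limit in both, and *Csf3r* was lower in 4 of 4 same-number pairs. Such a split without overlap occurred in 12.8% of all genes. In Ly6Chi Sham cells *Csf3r* also did not overlap between genotypes, at 5209 ± 292 in N2ΔMy and 5755 ± 353 in wt libraries (log2 fold change -0.14, adjusted p = 0.937), as in 3.15% of all genes. In Ly6Chi IMQ cells *Csf3r* was at 4272 ± 464 and 4211 ± 460, and no member was without overlap there, as 3.84% of all genes were.

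The other receptors were not called between genotypes of Ly6Clo cells, and intervals are given for the fit without the block. *Csf1r* was at 23456 ± 4689 in N2ΔMy and 29519 ± 4748 in wt libraries, a log2 fold change of -0.34 (95% interval -0.69 to 0.02, adjusted p = 0.284). It was lower in 4 of 4 same-number pairs, and blocking on the number gave an adjusted p of 0.00979, with the change still under the fold limit. *Csf2rb2* differed by 0.35 (-0.03 to 0.74), being higher in 4 of 4 pairs (adjusted p = 0.3, and 0.0746 in the blocked fit), and *Csf2ra* by 0.09 (-0.42 to 0.60). *Csf2rb* was nearest to no difference, at 3501 ± 135 and 3524 ± 339, with an interval of -0.21 to 0.20. In Ly6Chi cells of either treatment the difference between genotypes that was largest in size was that of *Csf2rb2* after Sham, at 0.19 on the log2 scale (-0.04 to 0.43).

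Ordered by level over the 6 groups, *Csf1r* ran from 16559 in N2ΔMy Ly6Chi IMQ to 29519 in wt Ly6Clo IMQ cells, a ratio of 1.78, and each group overlapped the next. *Csf2rb* (3501 to 5736) and *Csf2rb2* (318 to 1105) had a single gap, between the Ly6Clo groups at the bottom and the 4 Ly6Chi groups, with a ratio of 3.48 from lowest to highest for *Csf2rb2*. *Csf3r* ran from 2263 in N2ΔMy Ly6Clo over wt Ly6Clo, both Ly6Chi IMQ groups and N2ΔMy Ly6Chi Sham to 5755 in wt Ly6Chi Sham cells, and its lowest and highest groups stood clear of their neighbours. *Flt3* ran from 124 in wt Ly6Clo to 643 in N2ΔMy Ly6Chi Sham cells with overlap at every step, and *Csf2ra* likewise overlapped throughout.

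The genes most like each receptor over the 24 libraries, among 8375 genes with a mean of at least 100 and after removing the mean of each replicate number, were found by Pearson's r. The points share groups and libraries, and r is given as a description only. For *Csf1r* they were *Jup* (0.98), *Plek* (0.97) and *Themis2* (0.966), for *Csf2rb* *Tgfbi* (0.958), *C3* and *Tmem173* (both 0.951), and for *Csf2rb2* *Mmp8* (0.977), *P4hb* and *Tmem173* (both 0.976). *Csf3r* was most like *Tmpo* (0.973), *Igsf6* (0.97) and *Esr1* (0.968), and *Csf2ra* most like *Elmsan1* (0.904), *Mat2a* (0.901) and *Pkdcc* (0.856). *Flt3* was most like *Kmo* (0.949), which is on the dendritic cell list, *H2-DMb1* (0.923) and *Ece1* (0.922). Among the members themselves, *Csf2rb* and *Csf2rb2* were closest (0.947), and *Csf1r* and *Csf2rb2* ran most opposite (-0.896).

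Of the ligands, monocytes themselves transcribed few. Of 7 ligand genes, 2 passed the filter on low values. *Csf1*, the main CSF1R ligand, read 119, 142, 127 and 108 in wt Ly6Chi Sham and 5, 38, 38 and 20 in wt Ly6Chi IMQ libraries, and fell by 2.57 on the log2 scale (SE 0.53, adjusted p = 0.00777). In N2ΔMy Ly6Chi cells it fell by 1.96 (SE 0.28, adjusted p = 0.00145), from 110 to 142 down to 19 to 47. *Flt3l*, the FLT3 ligand, was between 93 and 224 in all libraries and was not called in any comparison. *Csf2*, *Csf3* and *Il3* were listed at 0 in all 24 libraries, and *Il34* and *Il5* did not exceed 1.

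Among 5 related receptors, *Il3ra*, the IL-3-binding chain that pairs with CSF2RB and CSF2RB2, fell between Ly6Chi and Ly6Clo cells, from 251 ± 50.3 to 163 ± 40 in wt (log2 fold change -0.63, adjusted p = 0.0392) and from 247 ± 39 to 155 ± 23.3 in N2ΔMy mice (-0.67, adjusted p = 0.018). *Kit*, the stem cell factor receptor, read 2, 1, 45 and 7 in wt and 7, 0, 93 and 44 in N2ΔMy Ly6Clo libraries, highest at number 3 as *Flt3* was, and 0 to 9 in Ly6Chi libraries, and was not called. The fit blocked on the replicate number called it between subsets of N2ΔMy mice (adjusted p = 0.034, with 20.5% of all genes called). *Kit* passed the filter on low values through N2ΔMy Ly6Clo number 3 alone, so that call is no independent support for a difference. *Pdgfrb* was at 17.2 ± 12.6 in wt Ly6Chi Sham and 62 ± 9.87 in wt Ly6Clo IMQ libraries and was called after IMQ in wt mice in the blocked fit alone (17.2 to 38.2, adjusted p = 0.0425, with 11.9% of all genes called), while *Il5ra* and *Pdgfra* were below the filter.

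Receptor-proximal signalling genes were not called after IMQ in either genotype (0 of 26 tested of 27), where 9.49% (wt) and 8.7% (N2ΔMy) of all genes were. Between wt Ly6Clo and Ly6Chi cells 8 rose and 2 fell, with a median log2 fold change of 0.36 beside -0.01 over all genes and with 24.6% of all genes called. In N2ΔMy mice 4 rose and 1 fell (median 0.24), which is near the 17.4% of all genes called. *Pik3ap1*, an adaptor that binds PI3K, rose by 2.52 on the log2 scale in wt and by 2.37 in N2ΔMy mice (2790 ± 718 to 15610 ± 1639 in wt). *Sos1*, an exchange factor for RAS, rose by 1.05 and 0.85. *Tyk2*, a JAK family kinase, fell by 1.06 and 0.86, and *Gab1*, a docking protein, fell by 1.44 in wt mice. Between genotypes of Ly6Clo cells *Gab1* was the 1 gene called of 26, a count near the 4.78% of all genes called, and was higher in N2ΔMy (264 ± 76.7 against 90 ± 31.6, log2 fold change 1.57, adjusted p = 0.00633).

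Of 14 negative regulators tested, 2 were higher and 2 lower after IMQ in wt Ly6Chi cells and 1 was higher and 3 lower in N2ΔMy Ly6Chi cells, where 9.49% and 8.7% of all genes were called, with 10 not called in each. *Socs3*, which dampens G-CSF receptor signalling, read 783, 816, 659 and 959 in wt Sham and 2010, 2419, 1912 and 3056 in wt IMQ libraries, and rose by 1.53 (SE 0.16, adjusted p = 0.000194); in N2ΔMy mice it rose by 1.61 (adjusted p = 0.000311). *Socs1* fell by 1.64 and 2.35, at levels of 18 to 67 in Sham and 3 to 14 in IMQ libraries, and *Dusp6*, a phosphatase of ERK, fell by 1.00 and 1.17. *Cblb*, a ubiquitin ligase, rose by 0.62 in wt mice, and *Spred1*, an inhibitor of RAS signalling, fell by 0.63 in N2ΔMy mice.

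Between subsets, 5 of 14 negative regulators were higher in Ly6Clo cells and none lower in each genotype, where 24.6% (wt) and 17.4% (N2ΔMy) of all genes were called. *Cblb* rose by 1.73 in wt and 1.39 in N2ΔMy mice, *Dok1*, an adaptor, by 1.13 and 0.73, and *Socs3* by 1.13 and 0.77. *Dok3* rose by 0.67 in wt mice. *Dok2*, a relative of *Dok1*, rose in N2ΔMy mice (2.06), reading 160 ± 18.8 in wt and 1245 ± 225 in N2ΔMy Ly6Clo libraries. Between genotypes of Ly6Clo cells *Dok2* rose by 2.94 (adjusted p = 3.45e-06) and *Socs3* and *Cblb* fell by 0.80 and 0.71. *Dok2* was also the gene of this list called in the genotype by subset interaction (2.01, SE 0.28, adjusted p = 0.000828). Between genotypes of Ly6Chi cells after IMQ it was called in the blocked fit alone (0.93, adjusted p = 0.00915, with 0.481% of all genes called; 0.467 without the block).

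Of 12 STAT response genes tested, 4 were higher in Ly6Clo than in Ly6Chi cells of either genotype and none lower, where 24.6% (wt) and 17.4% (N2ΔMy) of all genes were called; the blocked fit called 5 in wt mice and 28.5% of all genes. *Ccnd2*, cyclin D2, read 8 to 18 in wt Ly6Chi IMQ and 332 to 1126 in wt Ly6Clo libraries (log2 fold change 5.82, adjusted p = 1.59e-06) and 0 to 8 and 411 to 505 in N2ΔMy mice (7.07, adjusted p = 6.29e-06). *Bcl6*, a repressor, rose by 1.22 and 1.11, and *Ccnd1*, cyclin D1, by 2.41 and 4.02, with levels of 375 and 94 at number 3 of N2ΔMy and wt Ly6Clo cells and 21 to 132 at the other numbers. Between genotypes of Ly6Clo cells *Bcl6* was lower in N2ΔMy mice (3504 ± 204 against 5636 ± 79.1, log2 fold change -0.69, adjusted p = 0.00067), with *Socs3* the other of 2 called beside 4.78% of all genes; the blocked fit called 3 beside 8.36%. After IMQ in Ly6Chi cells *Socs3* and *Socs1* were the 2 called in each genotype, beside 9.49% (wt) and 8.7% (N2ΔMy) of all genes. The blocked fit called 3 in wt and 4 in N2ΔMy mice, beside 11.9% and 9.89% of all genes.

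Of 17 transcription factors of the receptor genes tested, 4 were higher and 5 lower in Ly6Clo than in Ly6Chi cells of wt mice and 3 higher and 3 lower in N2ΔMy mice, where 24.6% and 17.4% of all genes were called. The blocked fit called 13 and 8 of them, and 28.5% and 20.5% of all genes. *Ets1* rose by 6.14 and 5.48 and *Ets2* by 2.95 and 2.78 in Ly6Clo cells, and *Klf4*, a factor of Ly6Clo monocytes, by 1.05 and 1.04. *Cebpe*, a factor of granulocyte maturation, fell by 2.12 and 0.97, and *Cebpa*, a factor that drives *Csf3r* and other myeloid receptor genes, fell by 1.43 in wt mice. After IMQ in Ly6Chi cells *Cebpe* rose by 1.59 in wt and 2.23 in N2ΔMy mice from levels of 7 to 21, *Egr1* fell by 1.61 in wt and *Cebpa* fell by 0.76 in N2ΔMy mice. None of the 17 was called between genotypes in Ly6Clo cells, and 5 were in the blocked fit, which called 8.36% of all genes there. After IMQ in wt mice the block gave 5 rather than 3, and 11.9% of all genes rather than 9.49%. The subset comparisons and the genotype comparison of Ly6Clo cells share libraries, so their counts are not independent.

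**Figure D5:**
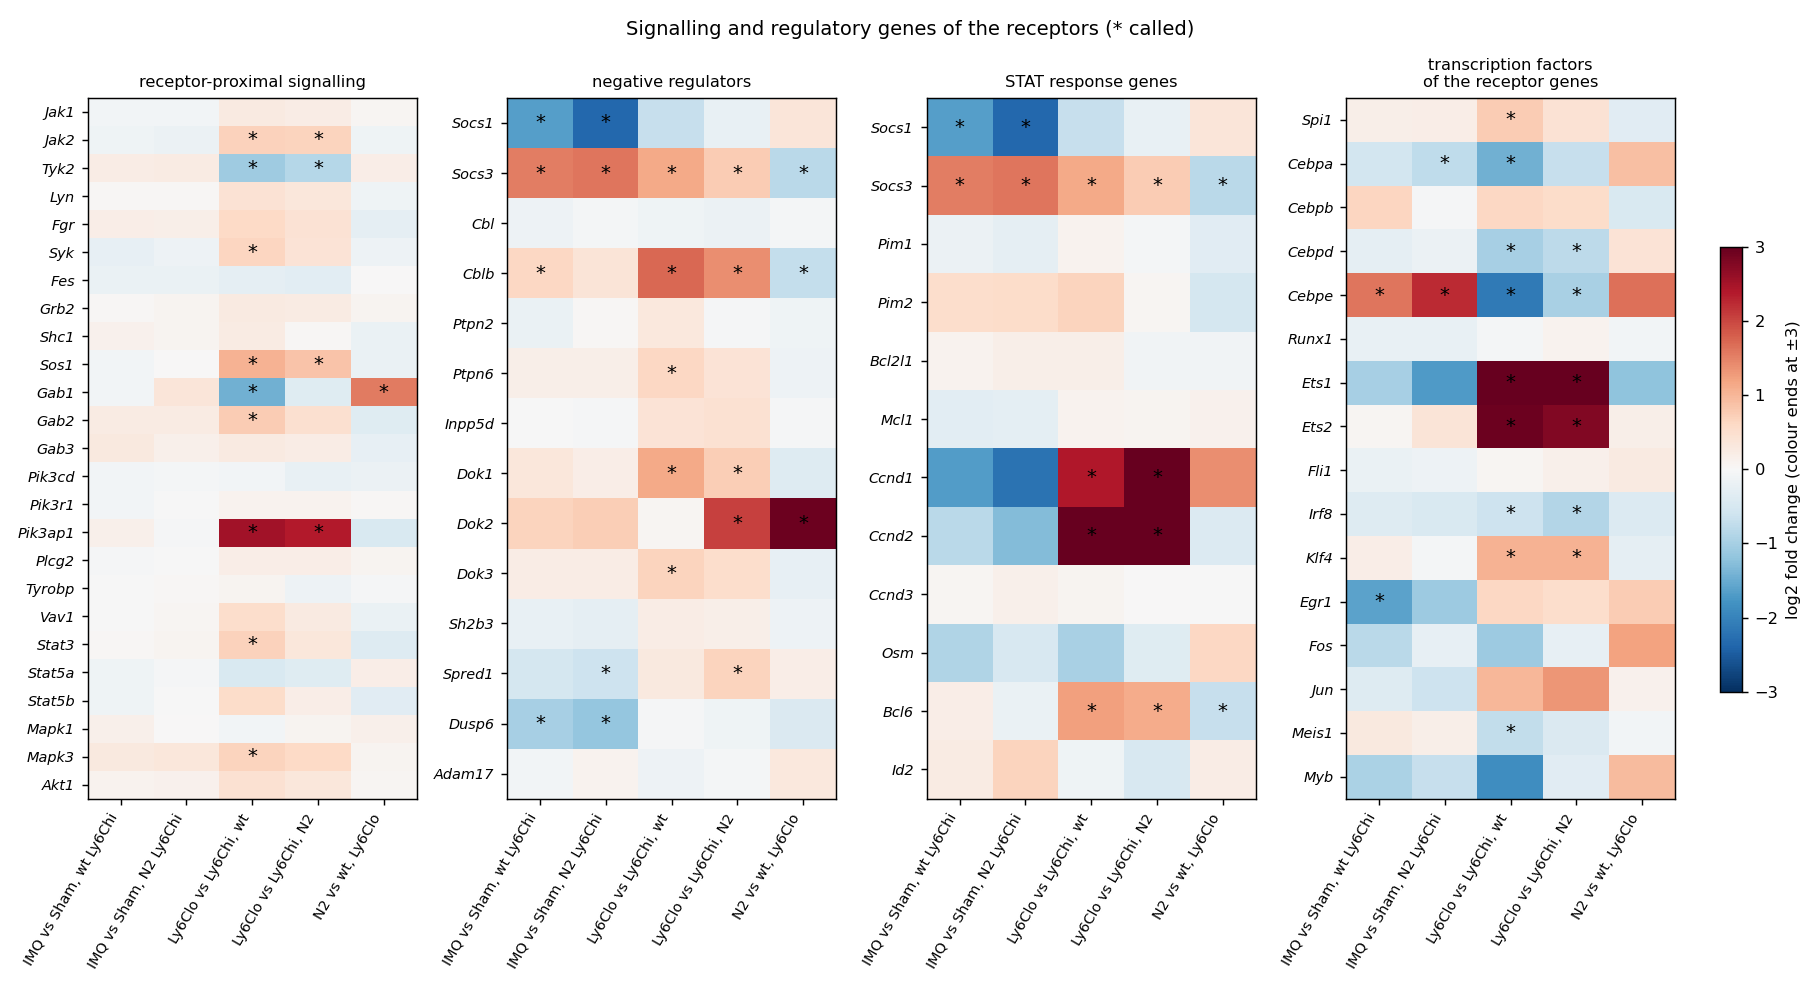
Log2 fold change (colour, red higher and blue lower, ending at ±3) of tested signalling genes, negative regulators, STAT response genes and transcription factors (rows) in 5 comparisons (columns, N2 = N2ΔMy); asterisks mark calls. The subset columns hold most calls, *Socs3* is called in all 5 columns, and *Dok2* and *Gab1* are the genes called higher in N2ΔMy Ly6Clo cells in the last column.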

How the data were processed

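RNA of sorted monocytes was sequenced with a stranded total RNA kit (11 PCR cycles, 75-base single reads). Per the paper's methods and the submitters' processing notes, the authors trimmed reads with Trim Galore 0.4.4, aligned them with STAR 2.5.3a to GRCm38.p6 (GENCODE) and normalised with DESeq2; the counting tool is not given in the sources used here. The deposited table holds per gene and library a score, the normalised count rounded to a whole number, so count models were not used, and binomial intervals were not possible. It also holds the authors' own fold changes and p-values, which were not used.

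Values were compared as log2(value + 1) with limma 3.58.1 in R 4.3.3 (lmFit, eBayes with trend), each fit holding only the groups it compares, with Benjamini-Hochberg adjustment over all 11230 genes. A call needed an adjusted p up to 0.05 and a log2 fold change of 0.6 or more in size. Folds understate changes of low genes. Single values used two-sided exact permutation over 70 splits (smallest p 0.0286). The scripts were tested on simulated data without any effect of series or number. Changes of 1 log2 unit were called in 85.5% of changed genes between genotypes of Ly6Clo cells and in 59.6% in the genotype by subset interaction. For changes of 2 units the shares were 97.8% and 91.9%, with 2 and 10 unchanged genes called. An interaction of that smaller size could thus be missed.

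Same-numbered libraries shared their deviations from the group means (r across genes 0.16 to 0.619 for all 4 numbers in 7 comparisons), so the number was used as a block. Blocked values are given beside members whose adjusted p they bring across 0.05 and beside receptor and pathway lists whose counts they change. Within a library series this correlation was lower, with means of 0.011 (wt) and -0.011 (N2ΔMy) for IMQ against Sham. The means were 0.244 (wt) and 0.234 (N2ΔMy) between subsets and 0.108 to 0.186 between genotypes. For IMQ against Sham the number thus carried almost nothing beyond the series. Libraries that differ in treatment or genotype come from different mice, so their same-number pairs are not pairs of 1 animal. The paper gives n = 4 for the sequenced groups and describes its n in general as biological replicates. Which animals, and how many, gave each of the 4 libraries of a group is not stated in the sources used here. The p-values thus measure the spread between these libraries.

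Members were matched by gene symbol with no threshold on a value, but they and the gene lists were chosen with earlier results of these data known. All 6 members were named, lists were counted whole, ligands and related receptors were all named, and from other lists up to 4 called genes with the largest change per comparison, most others appearing in the plot only; some genes are counted in their lists but not reported here. *Cd209a*, *Zbtb46*, *Clec10a*, *Clec9a*, *Klrd1*, *S100a8* and *S100a9* were named after their values were seen. Alternatives were a block, library series, pseudocount, floor, filter, rescaling, trend, a fit of all groups and leaving out libraries. Tables and figures used Python 3.11.15 and matplotlib 3.10.9.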

Additional observations from a re-analysis of the deposited data

Results flagged for a closer look

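In 3 of the 36 sets of 4 libraries (6 genes in 6 groups) 1 library stood apart from the other 3 by Dixon's criterion at the 95% level, which chance gives in about 1 of 20 sets. *Flt3* read 325 in wt Ly6Clo IMQ number 3, where the others read 35 to 71, and the summed dendritic cell markers were highest in the same library (497 against 70 to 134). *Csf3r* read 3865 in wt Ly6Clo IMQ number 1 with the others at 2801 to 2961, and 4773 in N2ΔMy Ly6Chi Sham number 3 with the others at 5321 to 5372.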

How the results depend on the processing

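Of 618 single-gene values under other settings, 602 kept their side of the limits, 7 lost and 9 gained a call, and none reversed. With 1 library left out, 518 of 528 did so, 5 lost and 5 gained a call. The count of members called after IMQ in wt Ly6Chi cells was 1 and became 0 in the second library series alone, without a filter on low values and with all 24 libraries in 1 fit, and in N2ΔMy Ly6Chi cells it became 0 under the last pair of these. Between subsets of N2ΔMy mice it was 3 and became 5 in the first series alone. Between genotypes of Ly6Clo cells it was 0 and became 1 with the replicate block, with library series as a covariate, with all 24 libraries in 1 fit and without both Ly6Clo libraries numbered 3 (chosen after seeing the data), and the last also gave 1 in the genotype by subset interaction. Each of the last 5 gained calls was *Flt3*; the causes were not tested. With 1 library left out, that count was 0 to 1 and between subsets of wt mice 2 to 4. The block changed no other call of a member beside *Csf2ra* in the F-test over the groups (adjusted p 0.852 without and 0.00127 with it). It raised calls over all genes from 537 to 939 between genotypes of Ly6Clo cells, from 3 to 54 in Ly6Chi cells after IMQ, and from 116 to 271 in the genotype by subset interaction. Depth was inferred from the table and limits low values.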
